A study of Mus musculus with 4 samples.

Results

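The genes of the telomerase holoenzyme proteins were followed in mouse embryonic stem cells (mESCs) that lack the telomerase RNA. In all, 10 genes, Tert, Dkc1, Nop10, Nhp2, Gar1, Naf1, Wrap53, Tep1, Ruvbl1 and Ruvbl2, were chosen by name for the role of their products in the enzyme or its assembly, and each was found under its exact symbol among the 53379 genes of the files. The cells were DKO741, a Terc-/- line made from E14 mESCs with the targeting construct TR-10. The neo marker was removed from the first targeted allele with an adenovirus carrying Cre recombinase, before the second allele was targeted. Cells of this line were sequenced at PD100, before telomeres were maintained by alternative lengthening (pre-ALT), and at PD800 (post-ALT), with 2 libraries of each. Stocks were kept on mouse embryonic fibroblast feeders, and feeder-free cells were used for RNA. The sample titles use the term PDL for the numbers 100 and 800, and the labels elsewhere call them passages. Both groups carry the same Terc deletion and come from a single line, and no telomerase-positive cells were among these samples, so culture time and the passage to ALT cannot be told apart here.

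Telomerase copies an RNA template onto chromosome ends. Its reverse transcriptase, TERT, joins the RNA TERC, whose H/ACA domain is bound by the same 4 proteins that bind box H/ACA small nucleolar RNAs (dyskerin, encoded by Dkc1, with NOP10, NHP2 and GAR1). NAF1 takes the place of GAR1 while the particle is assembled, the ATPases RUVBL1 and RUVBL2 take part in that assembly, WRAP53 (also TCAB1) brings the RNA to Cajal bodies, and TEP1 is a large protein shared with the vault particle. Except for TERT, these proteins also serve other particles, and the H/ACA proteins act in the modification of ribosomal and splicing RNAs in all cells.

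For the targeted gene, 1 count in all was assigned to Terc over the 4 libraries (to PD100 replicate 1). Since most Terc RNA carries no poly(A) tail, the study describes mRNA sequencing and no library of cells with Terc was at hand, this count does not check the deletion. The expected counts of all genes summed to between 32454121 and 38492149 per library, and a floor of 3 counts lay between 0.0743 and 0.0934 CPM (counts scaled to the library size by edgeR's TMM factors). These limits cover counting error only. All 10 genes were far above the floor and among the 19148 genes that passed the expression filter. The defining markers of pluripotent cells were expressed in both groups, with a summed level of 2027 to 2328 CPM over 8 markers at PD100 and 3708 to 3814 CPM at PD800, and 4 of the 8 rose (7 with DESeq2, and 2 to 8 over all alternatives). The PD100 libraries also held RNA of primitive endoderm markers, summing over 8 genes to 1193 and 1375 CPM against 60.1 and 68.1 CPM at PD800, and all 8 fell. Of the fibroblast markers, 8 genes summed to 72.0 and 98.3 CPM at PD100 and to 21.1 and 22.5 CPM at PD800, 5 of the 7 tested fell, and Lum was at or near 0 in every library. Among all genes tested, 13.1% rose and 15.4% fell. These markers move together with every comparison of PD800 and PD100 below, and their part in the results was not tested. In bulk RNA, fewer cells of a type and less RNA per cell cannot be told apart.

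Of the 10 genes, 0 rose and 2 fell from PD100 to PD800 (edgeR's quasi-likelihood test, Benjamini-Hochberg adjusted p under 0.01), and the other 8 passed in neither direction. Those that fell were Naf1, by almost the 2-fold limit, and Nhp2. Over all genes tested the share that passed was 28.5% (13.1% higher and 15.4% lower), so that the 20.0% of members that passed was not above the background. The median log2 fold change of the 10 genes was -0.07, beside 0.01 over all genes tested, and 0 members passed with a change over 2-fold in either direction, where 15.1% of all genes did (6.28% higher and 8.81% lower). At an unadjusted p under 0.05, 3 members were higher and 4 lower at PD800, where 26.4% of all genes were higher and 27% lower, and DESeq2 called 0 members higher and 2 lower, where 28.9% of all genes passed in either direction. With the looser limit of an adjusted p under 0.05, 2 were higher (Tert and Dkc1) and 3 lower (Naf1, Nhp2 and Ruvbl1), where 45.6% of all genes passed. The CPM values of the groups did not overlap for 9 of the 10 genes, against 73.7% of all genes. Of the 10, 5 were lower without overlap at PD800, where 36.3% of all genes were, and 4 were higher. With 2 libraries against 2, a two-sided exact permutation test of a single gene cannot give a p below 0.33, and while the study's methods call the replicates biological duplicates, nothing in the sources says whether they were separate cultures, so the p-values may measure only the spread between these libraries.

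**Figure D1:**
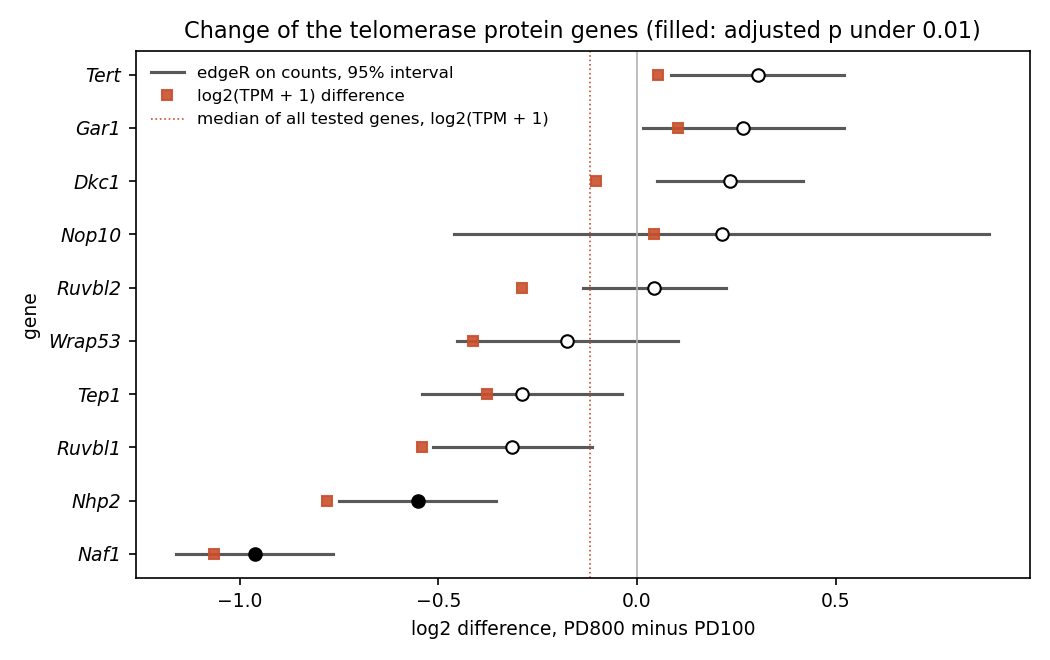
Change of each telomerase protein gene from PD100 to PD800 on the log2 scale. Circles are edgeR's log2 fold changes with 95% intervals as lines (filled, adjusted p under 0.01), and squares are differences of log2(TPM + 1) with the dotted line at the median of all tested genes on that scale. Naf1 at -0.96 and Nhp2 at -0.55 are the filled points, and the interval of Nop10, from -0.46 to 0.89, is the widest.

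The sequence around the transcription start is shown for Tert, the catalytic subunit, and Nhp2, the core subunit that fell. They are RefSeq windows of 300 bases on GRCm38.p6 (250 before the annotated start and 50 after), written 5′ to 3′ on the plus strand, with every GC box (GGGCGG, here read as CCGCCC on the other strand) in capitals. The window of Tert covers chr13:73626661-73626960 and that of Nhp2 chr11:51619523-51619822.
Tert: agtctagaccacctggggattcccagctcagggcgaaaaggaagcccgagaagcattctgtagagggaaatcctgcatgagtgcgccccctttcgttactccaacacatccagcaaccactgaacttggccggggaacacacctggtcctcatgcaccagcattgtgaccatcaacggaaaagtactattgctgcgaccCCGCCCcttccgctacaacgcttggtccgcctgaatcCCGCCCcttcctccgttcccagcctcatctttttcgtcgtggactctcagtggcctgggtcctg
Nhp2: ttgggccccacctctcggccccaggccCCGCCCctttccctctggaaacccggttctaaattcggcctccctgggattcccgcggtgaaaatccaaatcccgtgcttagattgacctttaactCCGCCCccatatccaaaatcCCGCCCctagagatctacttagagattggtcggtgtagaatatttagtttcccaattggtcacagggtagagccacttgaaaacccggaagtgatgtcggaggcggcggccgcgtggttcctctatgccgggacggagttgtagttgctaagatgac
The window of Tert holds 2 GC boxes and that of Nhp2 holds 3. Windows were found for 8 of the members (Naf1 and Tep1 had none), 9 windows in all, since Wrap53 had more than 1. A GC box on either strand was found for 4 of these members, where 35.7% of all 32851 windows held it. Here and for the E-box, the count is of members and the share is of windows. An E-box (CACGTG, which reads the same on both strands) was in a window of 1 member, Wrap53, and in 7.15% of all windows. These letters are a description of the windows, and the binding of factors to them was not measured here.

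Tert (chromosome 13, 73626911 to 73649843, plus strand, GRCm38) encodes the reverse transcriptase. Its level was 14.9 and 15.9 CPM in the PD100 replicates and 19.6 and 18.4 CPM in the PD800 replicates. The groups did not overlap, PD800 being higher, but the log2 fold change of 0.30 ± 0.09 (SE, 95% interval 0.09 to 0.52) did not pass (edgeR's quasi-likelihood test, adjusted p = 0.0347). The counts behind these values were 531 to 705 per library. Per length, the TPM values of Tert were 3.29 and 3.40 at PD100 and 3.64 and 3.37 at PD800, which overlap. RNA of the catalytic subunit was thus detected in every library of these cells without Terc, and the estimate from counts was 1.23-fold higher at PD800.

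By the Euclidean distance of log2 CPM centred over the 4 libraries, the genes most like Tert among 14689 with a mean of at least 1 CPM were Gm43668 (distance 0.01, log2 fold change 0.31), Zscan20 (0.03 and 0.29) and Twist1 (0.03 and 0.34). Twist1, which encodes a basic helix-loop-helix transcription factor, had 1.61 and 1.71 CPM at PD100 and 2.14 and 2.05 CPM at PD800. Likeness over 4 libraries is a description, drawn from a large number of candidate genes.

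Of the 4 subunits of the mature H/ACA particle, 1 fell (Nhp2) and 3 did not pass. Dkc1 (chromosome X, 75095854 to 75109777) encodes dyskerin, the pseudouridine synthase of the particle, and had 131 and 140 CPM at PD100 and 159 and 160 CPM at PD800. Its groups did not overlap in CPM, with PD800 higher, and the log2 fold change was 0.23 ± 0.08 (SE, adjusted p = 0.0468, edgeR's quasi-likelihood test), which did not pass. Without PD100 replicate 2 it did, at 0.27, in a fit in which a larger share of all genes passed too. On the TPM scale the order was turned, with 57.7 and 58.3 TPM at PD100 and 53.1 and 54.7 TPM at PD800. The median difference over all tested genes on the scale of log2(TPM + 1) was -0.12, and that of Dkc1 was -0.10 (limma, adjusted p = 0.351), so that relative to the other genes Dkc1 lay near 0 on that scale.

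Nhp2 (chromosome 11, 51619735 to 51623714), whose product binds the RNA within the core, fell. It had 252 and 275 CPM at PD100 against 177 and 182 CPM at PD800. The groups were far apart, and the log2 fold change was -0.55 ± 0.08 (SE, 95% interval -0.75 to -0.35, adjusted p = 0.00279, edgeR's quasi-likelihood test), so that the PD800 level was 31.8% lower. In TPM, Nhp2 went from 231 and 224 to 134 and 130, a lower level in both PD800 libraries as well. Without PD800 replicate 1 the log2 fold change was -0.53, and without PD800 replicate 2 it was -0.57. Nhp2 did not pass in either of these fits, in which a smaller share of all genes passed as well.

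Gar1 (chromosome 3, 129824912 to 129831396, minus strand) encodes the subunit that replaces NAF1 in the mature particle. It had 14.1 and 13.2 CPM at PD100 and 15.4 and 17.5 CPM at PD800. The groups did not overlap but were close, and the log2 fold change of 0.27 ± 0.10 (SE) did not pass (edgeR's quasi-likelihood test, adjusted p = 0.0799). The log2 fold change of Gar1 ran from 0.17 without PD800 replicate 2 to 0.36 without PD800 replicate 1. In TPM, the PD100 values of 24.2 and 17.0 enclosed the PD800 values of 20.7 and 23.0.

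Nop10 (chromosome 2, 112261926 to 112263269), the smallest of the core proteins, could not be placed. Its PD100 libraries held 70.5 and 37.7 CPM, on both sides of the PD800 values of 67.4 and 58.2 CPM. The log2 fold change was 0.21 ± 0.27 (SE, 95% interval -0.46 to 0.89, adjusted p = 0.566, edgeR's quasi-likelihood test). The log2 ratio of the PD100 replicates was 0.90, larger than in 98.8% of the 10705 genes with at least 5 CPM, whose median was 0.14. The outcome depends on which PD100 library is used. Without replicate 1, Nop10 was higher at PD800 with a log2 fold change of 0.74 (adjusted p = 2.98e-05), and without replicate 2 it was -0.19 (adjusted p = 0.0796).

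The assembly factor changed most. Naf1 (chromosome 8, 66860217 to 66890564), which holds the place of GAR1 on newly made H/ACA particles, had 49.6 and 45.8 CPM at PD100 and 24.6 and 24.3 CPM at PD800. Its log2 fold change was -0.96 ± 0.08 (SE, 95% interval -1.16 to -0.77, adjusted p = 0.000362, edgeR's quasi-likelihood test), and the level at PD800 was 48.7% lower. The fold of 1.95 lay just under the 2-fold limit. In TPM it fell from 13.8 and 11.4 to 5.66 and 5.28. Naf1 passed in all 13 other fits, with log2 fold changes between -1.18 and -0.90. A processed pseudogene with 92.4% identity over 1559 bases, Gm2027, had at most 10.7 counts in a library, against 781 to 2001 for Naf1.

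Neither of the paired ATPases of the assembly complex passed. Ruvbl1 (chromosome 6, 88465409 to 88497572) had 96.1 and 103 CPM at PD100 and 77.3 and 83.1 CPM at PD800. PD800 was lower in both libraries, and the log2 fold change of -0.31 ± 0.08 (SE) did not pass (adjusted p = 0.0229, edgeR's quasi-likelihood test). Ruvbl1 passed in 6 of the 13 other fits. Among them were those without a PD100 library (-0.36 without replicate 1 and -0.28 without replicate 2), in which a larger share of all genes passed too. Another was limma on log2(TPM + 1) (-0.54), where 15.9% of all genes passed in place of 28.5%. Ruvbl2 (chromosome 7, 45421760 to 45438096, minus strand) had 224 and 233 CPM at PD100 and 233 and 238 CPM at PD800, with a log2 fold change of 0.04 ± 0.07 (SE, 95% interval -0.14 to 0.22, adjusted p = 0.664). In TPM both were lower at PD800. Ruvbl1 went from 49.8 and 47.7 to 32.9 and 33.5, and Ruvbl2 from 118 and 133 to 103 and 102. The assignment of some reads of these genes is uncertain. The pseudogene Gm5837 has 99.3% identity to Ruvbl1 over 1369 bases, so reads may be divided between them, but it had between 56.9 and 95.2 counts in a library against 2670 to 3881 for Ruvbl1. Ruvbl2 shares 310 exon bases with Gys1 on the opposite strand, and Gys1 rose (log2 fold change 0.48, adjusted p = 0.00594). The study shows RNA-seq tracks by direction of transcription, but whether the gene counts used strand is not given in the sources used here.

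Wrap53 (chromosome 11, 69561758 to 69580255, minus strand), the Cajal body factor, had 31.4 and 38.7 CPM at PD100 and 30.6 and 31.4 CPM at PD800. PD100 replicate 1 was within 1 CPM of both PD800 libraries, and the log2 fold change was -0.18 ± 0.11 (SE, adjusted p = 0.257, edgeR's quasi-likelihood test). Without PD100 replicate 1 the gene passed as lower, with a log2 fold change of -0.32, in a fit in which a larger share of all genes passed too. Without PD100 replicate 2 the log2 fold change of Wrap53 was -0.0407. Tep1 (chromosome 14, 50824059 to 50870560, minus strand) had 17.7 and 19.2 CPM at PD100 and 16.0 and 14.1 CPM at PD800. Its groups did not overlap, and the log2 fold change of -0.29 ± 0.10 (SE) did not pass (adjusted p = 0.0630).

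Levels between genes were compared per length, in TPM. At PD100 the order of the mean TPM was Nhp2 (227), Ruvbl2 (126), Dkc1 (58.0), Ruvbl1 (48.8), Nop10 (42.9), Gar1 (20.6), Wrap53 (15.9), Naf1 (12.6), Tert (3.35) and Tep1 (3.29). Neighbours in this order overlapped between libraries for Ruvbl1 with Nop10 and for Tert with Tep1, and the range of Nop10 (27.6 to 58.2) also overlapped that of Dkc1 (57.7 to 58.3). At PD800 the order was the same except that Nop10 (41.6) came before Ruvbl1 (33.2), and no neighbours overlapped. The spread between members was wide, since Nhp2 ranked above 98.3% of all tested genes at PD100 and Tert above 51.7%. Tert stayed near the middle of all genes at PD800, above 55.9%, while Naf1 went from 76.3% to 63.7%. Naf1 was the member that moved most in this ranking.

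**Figure D2:**
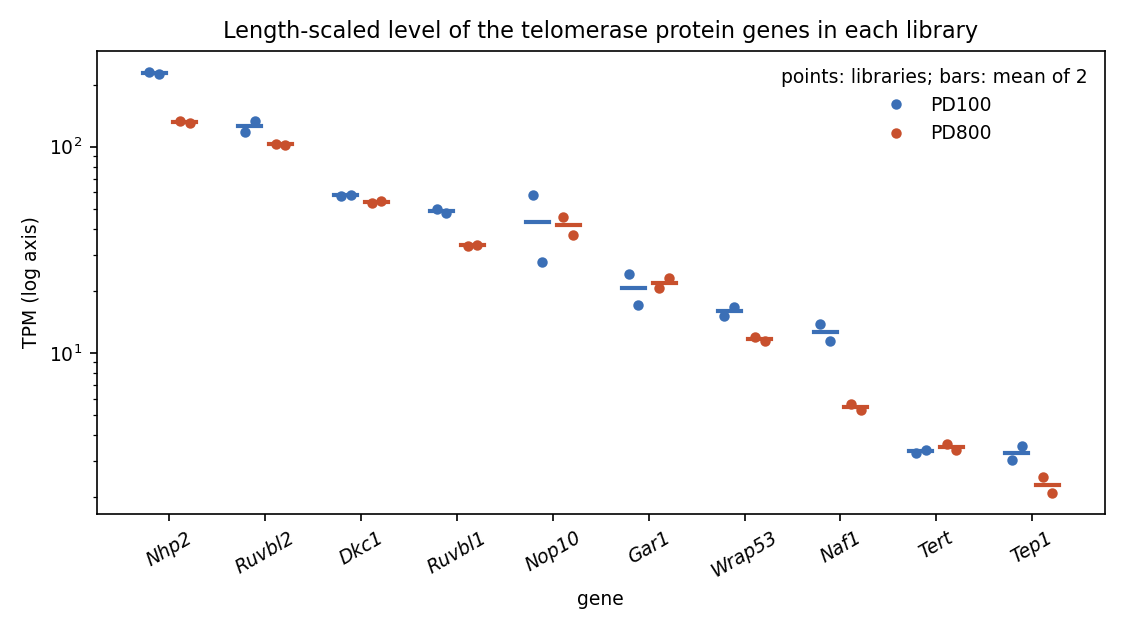
TPM of each telomerase protein gene on a log axis, with 1 point per library and a bar for the mean of the 2 libraries of a group. Genes are ordered by their PD100 mean, from Nhp2 at 227 to Tep1 at 3.29, and the 2 PD100 points of Nop10, at 58.2 and 27.6, lie on both sides of its PD800 points.

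In TPM the groups did not overlap for 7 of the 10 genes, where 70.3% of all genes did not. All 7 were lower at PD800, and 49% of all genes were lower without overlap. The TPM scale as a whole was lower for most genes at PD800 (median -0.12 on the scale of log2(TPM + 1)), so ratios within a library were used to compare members with each other. The ratio of Nhp2 to Dkc1 was 4.0 and 3.84 at PD100 and 2.51 and 2.39 at PD800. The ratio of Naf1 to Dkc1 was 0.239 and 0.196 at PD100 and 0.107 and 0.0966 at PD800. Of the 9 ratios to Dkc1, 6 were lower at PD800 with no overlap, those of Nhp2, Naf1, Wrap53, Tep1, Ruvbl1 and Ruvbl2, where the ratio to Dkc1 was lower without overlap for 42.3% of all genes. These ratios share Dkc1, whose own TPM was lower at PD800 without overlap (57.7 and 58.3 against 53.1 and 54.7), although its CPM was higher. The ratio of Ruvbl1 was 0.864 and 0.817 against 0.619 and 0.613, and that of Ruvbl2 was 2.05 and 2.28 against 1.94 and 1.87. The ratio of Tert to Dkc1 lay slightly higher at PD800, at 0.0685 and 0.0616 against 0.0571 and 0.0583. Those of Nop10 and Gar1 to Dkc1 overlapped between the groups. Between the proteins that take the same place in turn, the ratio of Naf1 to Gar1 was 0.568 and 0.671 at PD100 and 0.273 and 0.229 at PD800. For the partner ATPases, the ratio of Ruvbl1 to Ruvbl2 was 0.421 and 0.358 against 0.319 and 0.329, a small gap beside the spread of the PD100 libraries. These ratios carry the same 2 libraries per group and were not tested.

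**Figure D3:**
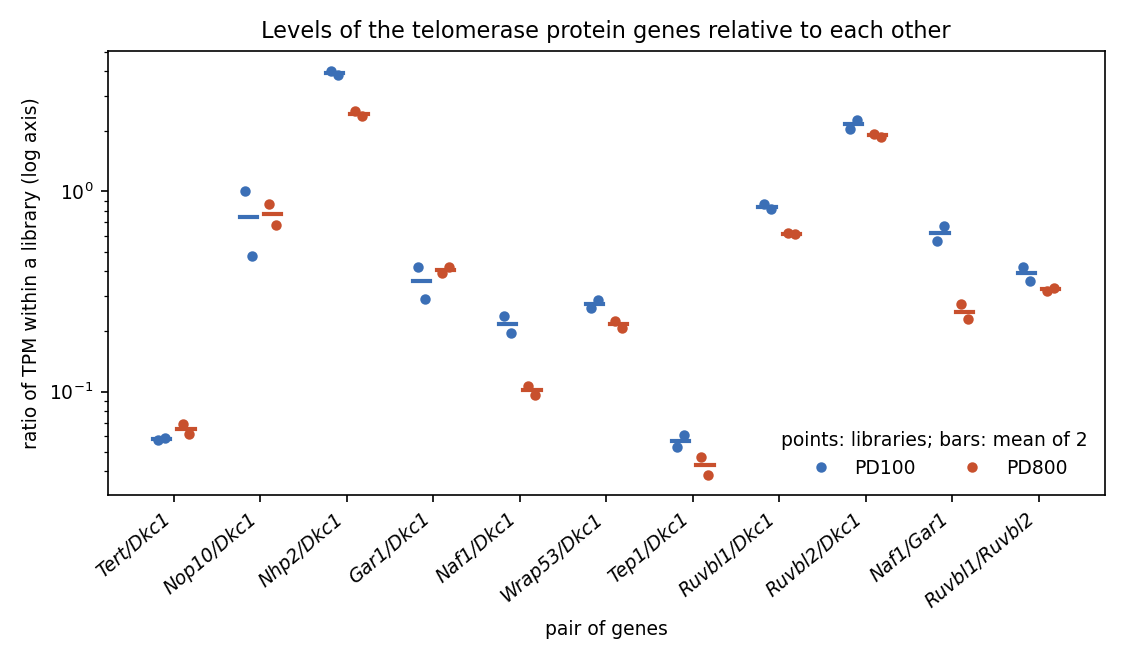
Ratio of TPM between pairs of telomerase protein genes within each library, on a log axis, with 1 point per library and a bar for the mean of the 2 libraries of a group. The ratios of Nhp2 to Dkc1 (4.0 and 3.84 against 2.51 and 2.39) and of Naf1 to Gar1 (0.568 and 0.671 against 0.273 and 0.229) are clearly apart between PD100 and PD800, while those of Nop10 and Gar1 to Dkc1 overlap.

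The mean transcript length that RSEM gives per gene, weighted by the abundance of the annotated isoforms, is a readout that played no part in choosing the genes. The lengths of the groups did not overlap for 3 of the 10 genes, where 24.1% of all genes did not overlap. For Dkc1 the length was 1929 and 1844 bases at PD100 and 2086 and 1944 at PD800, the nearest libraries being closer to each other than replicates of either group. For Wrap53 it was 1784 and 1775 bases against 1811 and 1836, and for Naf1 2967 and 2976 against 2965 and 2961. For Naf1 the gap was smaller than the difference between replicates. Tert, with 7 annotated isoforms of which 1 is coding, had 3696 and 3448 bases at PD100 and 3634 and 3489 at PD800, which overlap. Nop10 has a single annotated isoform. For Ruvbl2 and Tep1 the PD100 replicates differed more from each other (1639 and 1381 bases, and 4690 and 3969) than either group from the other.

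**Figure D4:**
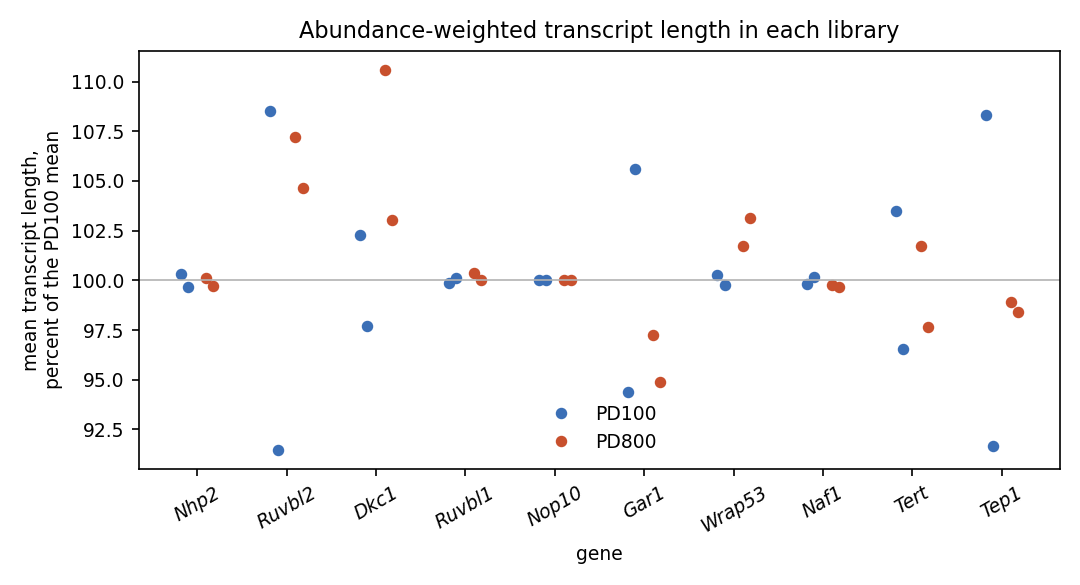
Abundance-weighted mean transcript length of each telomerase protein gene in each library, as a percentage of the PD100 mean of that gene. Only for Dkc1, Wrap53 and Naf1 do the PD100 and PD800 points not overlap, and the widest gaps are between the 2 PD100 libraries of Ruvbl2 and Tep1.

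None of the 10 genes lies near a chromosome end, the distance to the last annotated base of the chromosome being between 30.1 Mb (Gar1) and 99.9 Mb (Ruvbl2). The tested genes within 1 Mb of a member, which need share nothing with it but position, were used as local background. Around Naf1 there were only 5, whose log2 fold changes had a median of 0.02, and 2 of them fell. In a window of 5 Mb there were 127, with a median of -0.60, and the nearest 40 had a median of -0.27, beside the -0.96 of Naf1. Around Tert, whose own log2 fold change was 0.30, the median was 0.25 over 26 genes within 1 Mb, 0.10 over 58 within 5 Mb and 0.19 over the nearest 40. Around Gar1, 16 genes had a median of 0.48, above its own 0.27. Around Nhp2, at -0.55, the median was -0.14 over 35 genes within 1 Mb, -0.36 over 104 within 5 Mb and -0.15 over the nearest 40. The gap between Nhp2 and its surroundings was thus -0.42, -0.20 and -0.40 on the log2 scale in turn.

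Proteins that assemble H/ACA particles or work beside them were taken as lists. Of 7 H/ACA and R2TP assembly factors, 0 rose and 3 fell, 42.9% against the 28.5% of all genes that passed in either direction. The median log2 fold change was -0.36. At an unadjusted p under 0.05, 1 was higher and 4 lower, where 26.4% of all genes were higher and 27% lower. DESeq2 called 0 and 4, where 28.9% of all genes passed in either direction. Without PD800 replicate 1, and likewise without PD800 replicate 2, 0 of the 7 fell, in fits in which 13.9% and 14.5% of all genes passed. Several of these factors serve box C/D particles as well as, or instead of, H/ACA particles. Shq1, whose product is the chaperone of dyskerin and acts on H/ACA particles, did not pass, with 23.4 and 27.8 CPM at PD100 and 27.1 and 28.2 CPM at PD800 (log2 fold change 0.11 ± 0.10 (SE), adjusted p = 0.431, edgeR's quasi-likelihood test). The lowest was Znhit6, a factor of box C/D snoRNP assembly, with 17.0 and 17.4 CPM at PD100 and 9.96 and 11.5 CPM at PD800 (log2 fold change -0.68 ± 0.10 (SE), adjusted p = 0.00308, edgeR's quasi-likelihood test). Nolc1, which encodes the nucleolar and Cajal body phosphoprotein Nopp140, fell by 0.66 on the log2 scale, from 295 and 318 CPM to 193 and 196 CPM. Nufip1, which bridges the assembly complex to snoRNPs, had a log2 fold change of -0.36 (adjusted p = 0.00933). The highest was Pih1d1, a subunit of R2TP with RUVBL1 and RUVBL2, at 0.31 (adjusted p = 0.0419). Of 4 genes of the box C/D particle core, 0 passed in either direction, and 0 had an unadjusted p under 0.05 or were called by DESeq2. They ran from Nop56 at -0.18 to Nop58 at 0.14, the latter turning to -0.17 on the log2(TPM + 1) scale, where the median of all genes was -0.12.

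**Figure D5:**
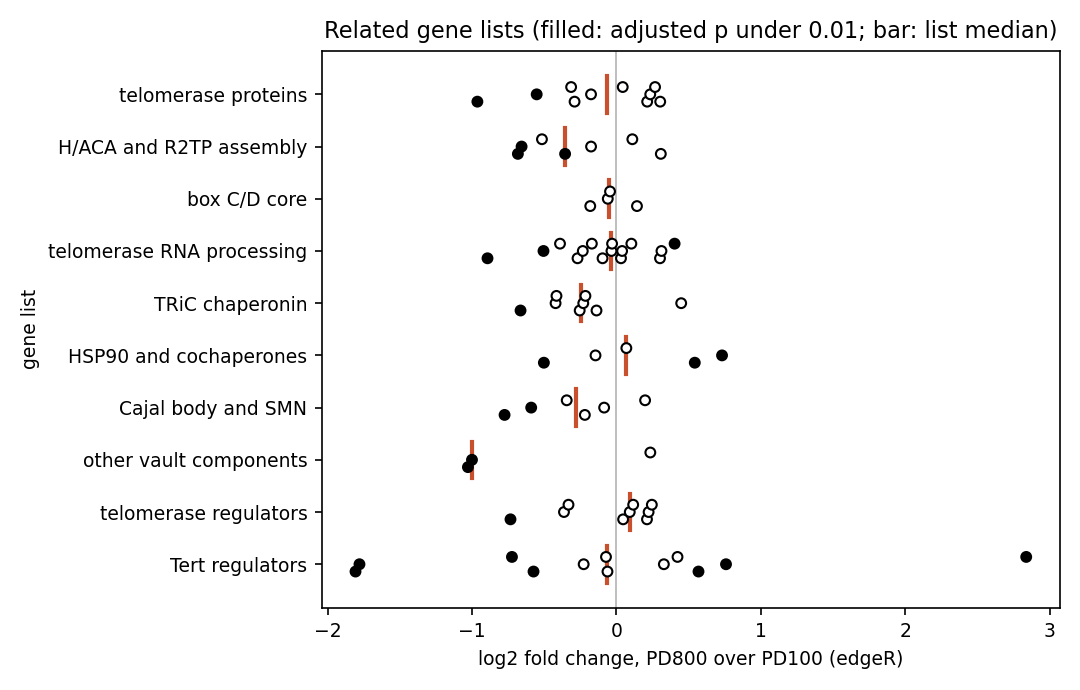
Log2 fold change from PD100 to PD800 of each tested gene in the telomerase protein list and 9 related lists. Filled points passed an adjusted p under 0.01 and bars are list medians, and the telomerase proteins, with 2 filled points and a median of -0.07, sit near 0 beside the H/ACA and R2TP assembly list at -0.36.

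Of 15 genes that trim, cap or degrade telomerase RNA precursors, 1 rose and 2 fell, 20.0% against 28.5% of all genes, with a median of -0.03 (at an unadjusted p under 0.05, 3 were higher and 5 lower, and DESeq2 called 2 and 3). Those that fell were Dis3, the catalytic subunit of the RNA exosome (log2 fold change -0.89, 169 and 171 CPM against 92.1 and 91.1 CPM, adjusted p = 0.000299), and Zc3h18 (-0.51). Ncbp2, the smaller subunit of the nuclear cap-binding complex, rose in the counts (0.40, adjusted p = 0.00885). It was -0.23 on the log2(TPM + 1) scale, where the median of all genes was -0.12. Of 8 subunits of the chaperonin TRiC, which folds WRAP53, 0 rose and 1 fell (Cct4, -0.66, adjusted p = 0.00133), 12.5% of the list, with Cct2 highest at 0.45 (adjusted p = 0.0103). At an unadjusted p under 0.05, 1 TRiC gene was higher and 4 lower, and DESeq2 called 1 and 3. Of all 19148 genes, 26.4% were higher and 27% lower at that limit. DESeq2 called 2502 of them higher and 3036 lower, 28.9% in either direction. Of 5 genes of HSP90 and its cochaperones, 2 rose, Hsp90aa1 (0.73) and Ahsa1 (0.54), and Stip1 fell (-0.50), 60.0% of this short list against 28.5% of all genes. Hsp90aa1, the inducible HSP90, had 4115 and 5100 CPM at PD100 and 7405 and 7894 CPM at PD800. All of these adjusted p-values are from edgeR's quasi-likelihood test over all genes.

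Of 6 genes of Cajal bodies and the SMN complex, 0 rose and 2 fell, 33.3% against 28.5% of all genes. Those that fell were Gemin5 (-0.77) and Gemin4 (-0.59), both subunits of the SMN complex. At an unadjusted p under 0.05 and with DESeq2 the counts were also 0 and 2. Of all genes, 26.4% were higher and 27% lower at that limit, and DESeq2 called 28.9% in either direction. Gemin5 lost its call without PD800 replicate 1 (-0.77). Gemin4 lost it without PD800 replicate 1 (-0.59) and without PD800 replicate 2 (-0.59). A smaller share of all genes passed in these fits too. Coil, the defining Cajal body protein gene, was highest at 0.20, with 37.8 and 34.2 CPM at PD100 and 41.8 and 40.9 CPM at PD800 (adjusted p = 0.10, edgeR's quasi-likelihood test), and was -0.04 on the log2(TPM + 1) scale, where the median of all genes was -0.12. Of the 3 other vault components, which are partners of TEP1 outside telomerase, Mvp, the major vault protein gene, fell from 79.2 and 104 CPM to 42.9 and 46.7 CPM (-1.03, adjusted p = 0.00205), and Parp4 fell with it (-1.0, adjusted p = 0.00308). The vault RNA gene Vaultrc5 did not pass (0.23), so that 66.7% of these 3 genes passed. Of 9 regulators of telomerase recruitment or activity, 0 rose and 1 fell, 11.1% against 28.5% of all genes, with a median of 0.09. Pinx1, which encodes a telomerase inhibitor, had 23.6 and 18.6 CPM at PD100 and 12.2 and 13.2 CPM at PD800 (-0.73, adjusted p = 0.00675), and Pif1, a helicase that removes telomerase from DNA, was highest at 0.25 (adjusted p = 0.0689). At an unadjusted p under 0.05, 1 of these regulators was higher and 3 lower, and DESeq2 called 0 and 3.

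Among transcription regulators known to act on Tert, changes in both directions were found. Of 12 such genes, 3 rose and 4 fell, 58.3% against 28.5% of all genes, with a median of -0.07. The list was chosen with earlier results of these data known, so this share is a description. Without PD800 replicate 1, 1 rose and 2 fell, where 13.9% of all genes passed, and without PD800 replicate 2, 2 rose and 2 fell, where 14.5% did. Klf4, a pluripotency factor, had 20.0 and 16.4 CPM at PD100 and 134 and 126 CPM at PD800 (log2 fold change 2.84 ± 0.12 (SE), adjusted p = 5.22e-05, edgeR's quasi-likelihood test). Max (0.76) and Ctnnb1 (0.57), the partner of MYC and beta-catenin, rose as well. Myc, an activator of Tert through E-boxes, had 37.3 and 40.5 CPM at PD100 and 11.5 and 10.8 CPM at PD800 (-1.81 ± 0.09 (SE), adjusted p = 7.99e-05). Wt1 (-1.78), Mycn (-0.72) and Mnt (-0.57), an antagonist of MYC, also fell. Activators of Tert were thus among those that rose and among those that fell, beside a difference of 0.30 in Tert that did not pass. Whether these genes bear on the level of Tert was not tested.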

How the data were processed

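RNA of 4 libraries was analysed, 2 of PD100 and 2 of PD800 cells, grouped by their titles. Per the submitters' processing notes, reads were handled with STAR 2.5.3a and RSEM 1.3.0 on mm10. The annotation release, and whether the counting used strand, are not given in the sources used here. The paper describes mRNA sequencing and the labels name total RNA. The authors deposited, per gene and library, RSEM's expected count (reads that fit several genes are divided, no scaling for depth), TPM and FPKM (scaled for length and depth), and the mean and effective transcript length.

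The members and lists were chosen with earlier results of these data known. Rounded expected counts were fitted by edgeR 4.0.16 under R 4.3.3 (expression filter filterByExpr at min.count 10, TMM, quasi-likelihood test without a block, Benjamini-Hochberg adjustment over 19148 genes), and a gene passed at an adjusted p under 0.01. The SE is the log2 fold change divided by the root of the F statistic. TPM was used to compare levels between genes and deposited FPKM to check their order. Replicates differed beyond sampling noise (chi-square per degree of freedom 57.9 and 9.13), so no library was the same data deposited again. The mitochondrial share of the expected counts was 11.0% to 15.4% at PD100 and 16.0% to 17.7% at PD800. The total expected count was 32454121 to 38492149 per library, and counts limit precision through the floor of 3 counts.

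Positions come from GENCODE M21 (GRCm38), in which 53274 of the 53379 identifiers were found, and promoter windows from RefSeq (GRCm38.p6). Named genes were the 10 members, Terc, in each related list the genes with the highest and lowest log2 fold change, and the 3 genes most like Tert. Other list genes named were chosen after their values were seen. Alternatives were DESeq2 1.42.0, its size factors and upper-quartile scaling in edgeR, other filters, removal of mitochondrial and short genes, limma 3.58.1 on log2(TPM + 1) and log2(TPM + 0.1), other thresholds, a replicate block, other windows and each library left out. The procedure was tested on simulated data.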

Additional observations from a re-analysis of the deposited data

How the results depend on the processing

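Counts of members that passed depended on the setting. Leaving out 1 library at a time, where the lone library of a group is assumed to vary like the other group, 0 to 1 members were higher and 1 to 4 lower, the median of the members ran from -0.149 to -0.0502, and Tert from 0.26 to 0.35. The share of all genes that passed moved likewise, from 13.9% and 14.5% without PD800 replicate 1 or 2 to 42.7% and 40.6% without PD100 replicate 1 or 2. An adjusted p under 0.05 gave 2 higher, and the 2-fold limit gave 0 lower. The median of the members was -0.33 on log2(TPM + 1) and -0.37 on log2(TPM + 0.1), both with limma, scales on which the median of all genes was -0.12 and -0.21. Signs turned on those scales for Dkc1 (-0.10 and -0.11), Ruvbl2 (-0.29 and -0.29), Ncbp2 (-0.23 and -0.24), Nop58 (-0.17 and -0.17), Coil (-0.0388 and -0.0415) and Pif1 (-0.0243 and -0.0273). With a PD100 library left out, Nop10 ran from -0.19 (without replicate 2) to 0.74 (without replicate 1) and Vaultrc5 from -0.11 (without replicate 1) to 0.65 (without replicate 2). The cause was not tested. Tert passed in none of its 13 other fits (adjusted p between 0.0103 and 0.747), and Naf1 passed in all 13 (1.93e-18 to 0.00558). Of the 22 genes of the related lists (markers left out) that passed, 18 lost their call in at least 1 of the 13 other fits, and 4 (Dis3, Myc, Klf4 and Wt1) passed in all 13, although Dis3 did not pass the 2-fold limit, and of 360 list counts, markers included, 96 moved by over 1.5 times.

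The replicate numbers do not mark a shared batch in the labels. Same-numbered libraries deviated together with a correlation of 0.35 across genes. With the number as a replicate block, 0 members were higher and 3 lower (Ruvbl1 in addition), and 41.7% of all genes passed in place of 28.5%. The order of levels was the same with FPKM, and 14 of 20 medians of genes around members moved by more than 0.0392 on the log2 scale with other windows (the SD over pairs of libraries of the members' median), those of Tert and Nhp2 at 5 Mb among them. Depth limits what can be said of pseudogene reads and of isoforms.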
